A study of Mus musculus with 2 samples.

Results

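The 10 genes described here encode enzymes that write, copy, oxidise and remove methyl groups on cytosine in DNA, and a pair of proteins that assist them, DNMT3L and UHRF1. They were chosen by name. Of the 10, Tet3, Dnmt3b, Uhrf1 and Tdg had a TET2 peak at a transcription start site (TSS), Tet2 and Dnmt3a had peaks inside the gene only, and Tet1, Dnmt1, Dnmt3l and Mbd4 had no peak at a TSS or inside the gene. The placement of the Tdg peak is uncertain, since parts of it occur elsewhere in the genome. In all, 7 of the 14103 deposited peaks belonged to the 10 genes, which are among 21951 protein-coding genes of the annotation. The cells were adipose-derived stem cells (ASCs) from the inguinal white adipose tissue of mice, expanded with a fibroblast growth factor. They were differentiated into adipocytes in culture with IBMX, dexamethasone and insulin, then kept in insulin. Strain, age and number of the donor animals are not stated for these libraries. TET2-bound chromatin was collected with an antibody against TET2 by chromatin immunoprecipitation and sequenced (ChIP-seq) in 1 TET2 library, with 1 input library of the same cells as background. Without a replicate, and without an untreated or Tet2-deficient library, spread between samples cannot be estimated and no comparison has a p-value. All intervals are exact 95% binomial intervals and cover counting error only. The input entered only through the authors' peak calls, and the list gives no read totals. The sequencing yield is stated by the study only as a volume of data, so the number of reads behind a peak is not known here. Peaks show where TET2 was called on DNA and give no expression level.

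DNMT3A and DNMT3B place methyl groups on unmethylated cytosine, and DNMT3L is a cofactor of both without catalytic activity. DNMT1 copies the methylation pattern to the new strand after replication, and UHRF1 brings DNMT1 to hemimethylated DNA. TET1, TET2 and TET3 oxidise 5-methylcytosine to 5-hydroxymethylcytosine and further. TDG, a DNA glycosylase, excises the further oxidised bases, and MBD4 is a glycosylase that acts on T or U mispaired with G at methylated CpG sites. TET1 and the long form of TET3 carry a CXXC domain that binds CpG-containing DNA, which TET2 lacks. The study cites work in which TET proteins take part in adipogenesis and the leptin promoter loses methylation during it.

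The sequences under the 7 peaks show the main contrast among them, which was the number of CpG dinucleotides. Each is up to 200 bases of the peak, as close to its midpoint as possible outside annotated untranslated exons, from the RefSeq genome GRCm38.p6. They are written on the strand of the gene, with CpG dinucleotides in capitals. The stretches lie at chr6:83441676-83441875 (minus strand) for Tet3, chr2:153649741-153649940 (plus) for Dnmt3b, chr17:56304484-56304683 (plus) for Uhrf1, chr10:82629678-82629827 (plus) for Tdg, chr12:3808166-3808365 (plus) for the intron 1 peak of Dnmt3a, chr12:3835198-3835397 (plus) for the exon 2 peak of Dnmt3a, and chr3:133495208-133495407 (minus) for Tet2.
Tet3 peak: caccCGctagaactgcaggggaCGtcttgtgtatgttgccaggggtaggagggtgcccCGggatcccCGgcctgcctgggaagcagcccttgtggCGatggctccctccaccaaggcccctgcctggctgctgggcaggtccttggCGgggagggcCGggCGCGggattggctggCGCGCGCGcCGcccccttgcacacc
Dnmt3b peak: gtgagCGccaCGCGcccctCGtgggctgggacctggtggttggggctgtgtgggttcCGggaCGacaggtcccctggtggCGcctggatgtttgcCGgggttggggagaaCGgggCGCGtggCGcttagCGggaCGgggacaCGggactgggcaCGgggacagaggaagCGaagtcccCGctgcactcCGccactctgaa
Uhrf1 peak: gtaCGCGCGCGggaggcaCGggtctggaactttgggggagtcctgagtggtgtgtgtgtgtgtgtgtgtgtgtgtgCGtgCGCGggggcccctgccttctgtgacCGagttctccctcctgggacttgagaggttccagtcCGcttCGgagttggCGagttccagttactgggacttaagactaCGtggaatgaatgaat
Tdg peak: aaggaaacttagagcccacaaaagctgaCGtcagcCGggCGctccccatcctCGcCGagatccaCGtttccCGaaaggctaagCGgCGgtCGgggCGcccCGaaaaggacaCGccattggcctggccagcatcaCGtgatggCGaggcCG
Dnmt3a intron 1 peak: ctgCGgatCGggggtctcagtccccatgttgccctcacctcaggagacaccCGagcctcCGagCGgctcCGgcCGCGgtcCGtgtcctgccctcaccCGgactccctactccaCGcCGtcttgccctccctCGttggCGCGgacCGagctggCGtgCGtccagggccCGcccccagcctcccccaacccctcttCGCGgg
Dnmt3a exon 2 peak: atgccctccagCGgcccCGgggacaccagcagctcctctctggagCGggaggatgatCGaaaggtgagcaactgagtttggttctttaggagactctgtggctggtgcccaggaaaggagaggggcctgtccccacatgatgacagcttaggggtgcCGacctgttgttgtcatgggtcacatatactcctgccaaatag
Tet2 peak: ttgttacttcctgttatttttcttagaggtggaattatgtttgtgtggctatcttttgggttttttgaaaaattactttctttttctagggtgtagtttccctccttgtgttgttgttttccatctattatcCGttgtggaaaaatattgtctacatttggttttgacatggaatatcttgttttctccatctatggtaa
The 4 stretches from peaks at a TSS held 13 to 19 CpG dinucleotides, that of the intron 1 peak of Dnmt3a held 21, that of its exon 2 peak 5, and that of the Tet2 peak 1. The Tdg stretch has 150 bases and the others 200, and the order differs over whole peaks. There the CpG number per 100 bp was 13.3 at Tdg, 10.9 at Dnmt3b, 8.53 at Tet3 and 6.18 at Uhrf1. It was 6.65 and 2.75 in the intron 1 and exon 2 peaks of Dnmt3a, and 0.267 in the Tet2 peak.

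A gene was counted as having a TSS peak when the midpoint of a peak lay within 1 kb of the TSS of any of its transcripts. The count was 4 of 10 genes (40.0%, interval 12.2% to 73.8%), against 24.6% of all protein-coding genes. It includes Tdg, whose peak has an uncertain placement. The 10 genes have many start sites, 5 to 18 distinct ones each, and 9 of the 10 have at least 1 TSS in CpG-rich sequence, Dnmt3l being the exception. A TSS was called CpG-rich when the 1 kb around it had a GC content of at least 50% and a CpG ratio, the observed number of CpG over that expected from its C and G content, of at least 0.6. Among protein-coding genes with a CpG-rich TSS, 39.9% had a TSS peak. Among those with 5 to 18 distinct TSSs the share was 34.9%, and among those with both properties it was 41.3%. The share of the 10 genes was therefore close to that of genes with like promoters, and all of these shares lie inside its interval.

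By single start sites, 14 of the 85 distinct TSSs of the 10 genes had a peak within 1 kb, or 16.5%, against 16.8% of all distinct TSSs of protein-coding genes. Of the 27 CpG-rich TSSs, 10 had one (37.0%), where 35.5% of all such TSSs did. Of the 58 CpG-poor TSSs, 4 had one (6.90%), where 5.57% of all such TSSs did. Start sites of a gene lie close together and share a peak, so they are not independent. The 4 CpG-poor TSSs with a peak were 3 of Tet3 and 1 of Tdg. In all, 4 of the 14 were of Tdg, whose peak has an uncertain placement, and 3 of those 4 were CpG-rich.

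A peak midpoint inside the gene was found for 6 of the 10 genes (60.0%, interval 26.2% to 87.8%), against 32.1% of all protein-coding genes. The 10 genes are 12.7 to 108 kb long, and in that range of length the share was 37.1%. Both shares lie inside the interval of the 10 genes. In Tet3, Dnmt3b, Uhrf1 and Tdg the peak was the one already counted at a TSS. In 2 genes, Tet2 and Dnmt3a, a gene body peak lay over 1 kb from every TSS of the gene. The share of all protein-coding genes with such a peak was not computed, so this count is not read as high or low. A peak at a TSS or inside the gene was likewise found for 6 of 10, against 35.4% of protein-coding genes. The midpoint nearest to a TSS lay a median of 5.77 kb away over the 10 genes and 22.9 kb over protein-coding genes. The distances of the 10 genes ran from 6 bp at Tdg to 60.3 kb at Dnmt3l. Each is the smallest over all start sites of a gene, and the 22.9 kb was not matched for number of TSSs or CpG content. Within 100 kb of the 5′ end, the 10 genes had 1 to 4 peaks with a median of 2, which is also the median of protein-coding genes.

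**Figure D1:**
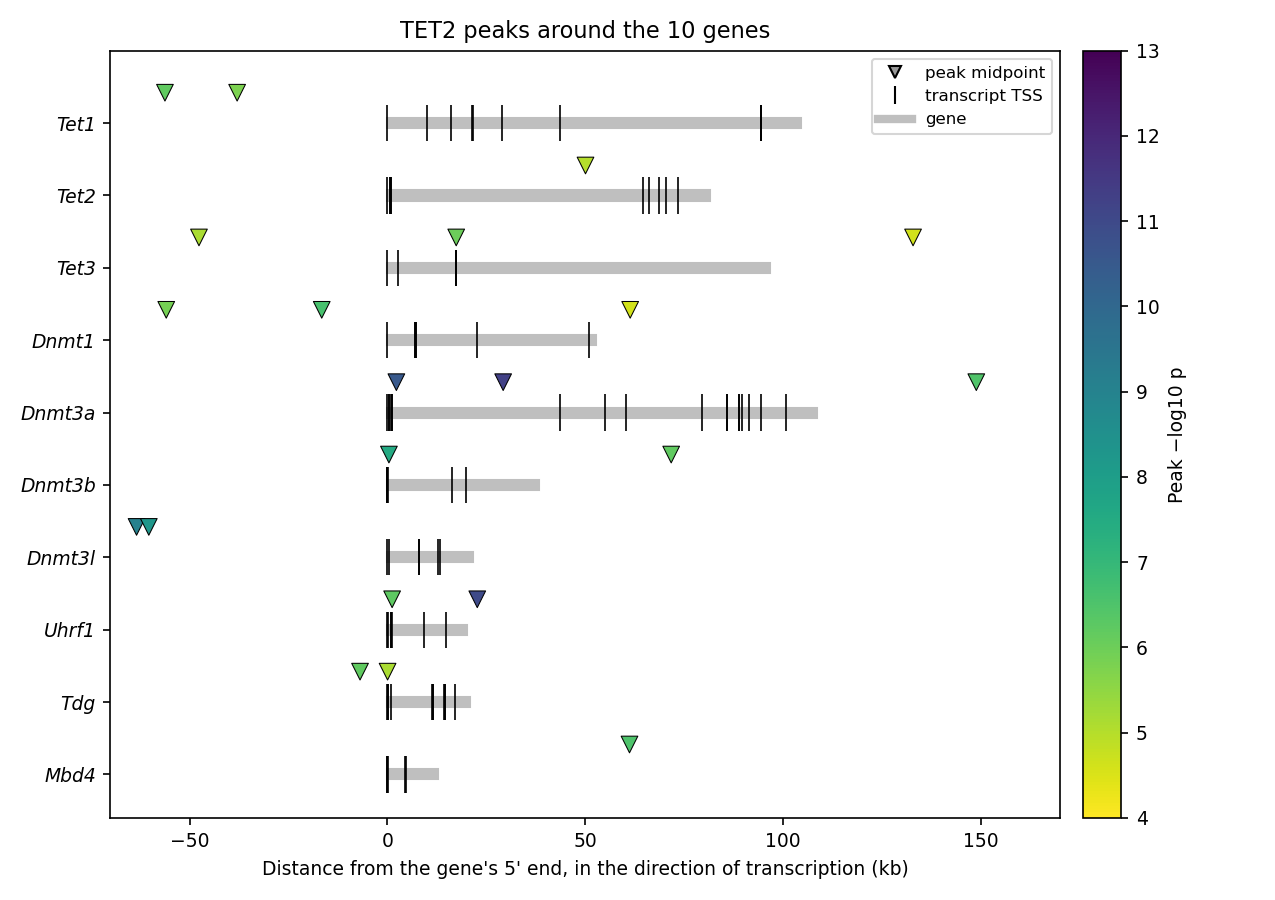
Peaks around the 10 genes, each gene drawn as a grey bar from its 5′ end in the direction of transcription (x axis, kb), with black ticks at transcript TSSs and triangles at peak midpoints, coloured by −log10 p. Triangles stand over the bars of Tet2, Tet3, Dnmt3a, Dnmt3b, Uhrf1 and Tdg, and those near Tet1, Dnmt1, Dnmt3l and Mbd4 lie outside the gene.

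The strength of a peak is given as the −log10 of the p-value that the authors' peak caller computed for it against the background. Over all peaks it ran from 3.07 to 335.2 with a median of 6.21, and over the 5170 peaks at the TSS of a protein-coding gene the median was 6.83. Of all peaks, 15.5% were under 5, where a p-value limit of 1e-05 would have left them out, so the values are read here as an order within the list. The 4 TSS peaks of the 10 genes had values from 5.13 to 7.53, and only that of Dnmt3b was above the median of TSS peaks. The strongest peaks of the 10 genes were the pair inside Dnmt3a, at 10.5 and 11.3. The weakest was the peak inside Tet2, at 5.00.

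**Figure D2:**
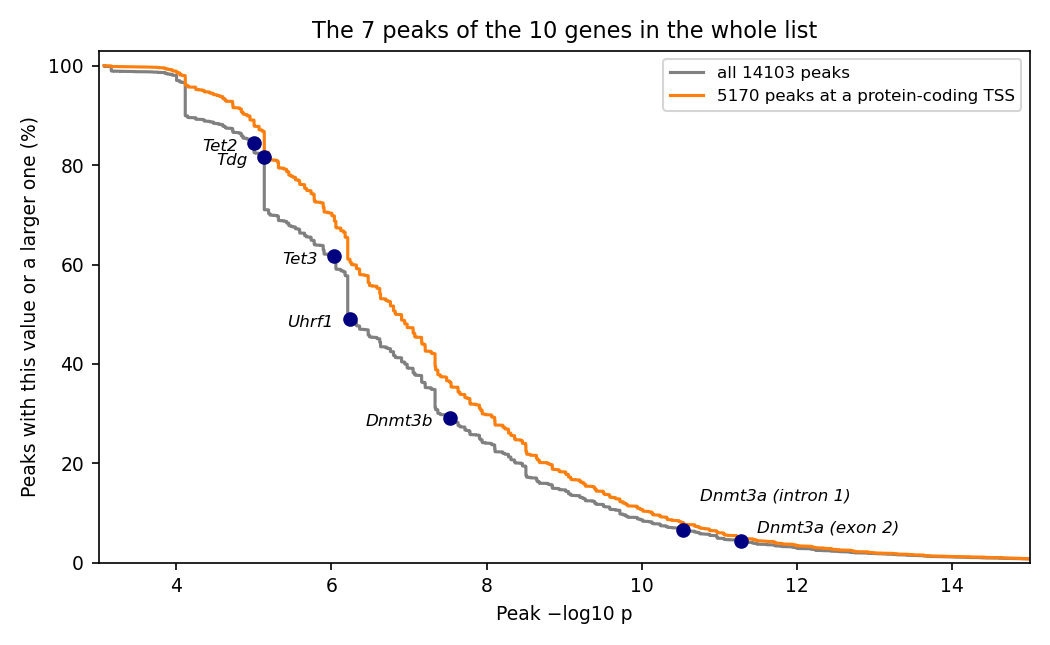
The share of peaks (y axis, %) with a −log10 p at or above the value on the x axis, for all 14103 peaks (grey) and for the 5170 at a protein-coding TSS (orange), with the 7 peaks of the 10 genes as points on the grey line. The peaks inside Dnmt3a lie to the right of the other 5, and those of Tet2 and Tdg in the lower part of the range, where most peaks are larger, and the axis ends before the largest values of the list.

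Tet3 (ENSMUSG00000034832, chr6:83362373-83459084, minus strand, GRCm38) had its peak at an internal promoter. The peak covered chr6:83441516-83441890 (375 bp) with a −log10 p of 6.04, which 60.8% of all peaks and 68.7% of TSS peaks exceeded. Its midpoint lay 25 bp upstream of the TSS of Tet3-201, a processed transcript, 28 bp upstream of Tet3-202, a coding transcript of 1668 codons, and 71 bp upstream of Tet3-205, a retained intron. On the other strand the same midpoint lay 52 bp upstream of the TSS of the non-coding RNA B230319C09Rik, so the peak sat between divergent start sites.

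The longest coding transcript, Tet3-203, has 1803 codons and starts 14.7 kb upstream of the peak midpoint, which falls in its intron 2. No peak lay within 1 kb of that TSS. It was more CpG-rich than the start sites with the peak, with 127 CpG dinucleotides and a CpG ratio of 0.82 in the 1 kb around it. The 3 start sites with the peak had ratios of 0.537 to 0.562, below the limit for CpG-rich sequence. The peak itself held 32 CpG dinucleotides at a GC content of 73.3% and a CpG ratio of 0.644. The TSS of Tet3-204, a coding transcript of 141 codons that starts furthest upstream, had no peak within 1 kb either. The next peaks outside the gene lay 47.6 kb upstream, at Dguok, and 36.1 kb downstream, at Mob1a and Mthfd2.

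Tet2 (ENSMUSG00000040943, chr3:133463679-133545139, minus strand) had no peak at any of its 10 start sites, of which 5 are CpG-rich. The coding transcripts Tet2-201, of 1912 codons, and Tet2-204, of 1920 codons, start at CpG ratios of 0.92 and 0.927, and the nearest peak midpoint was 49.1 kb downstream of both. That peak, at chr3:133495121-133495495 (375 bp), lay in intron 2 of Tet2-201, of Tet2-204 and of Tet2-205. Its −log10 p of 5.00 was exceeded by 82.6% of all peaks. The TSS nearest to it was that of Tet2-210, a retained intron, 14.6 kb downstream of the peak.

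The Tet2 peak differed in sequence from the other 6. It held a single CpG dinucleotide at a GC content of 36.0% and a CpG ratio of 0.089, and only 9.44% of all peaks had a lower ratio. All of its bases are masked as repetitive in the genome sequence. A stretch of 104 bp matched another place in the genome at 90.4% identity, without a peak there. Reads from such sequence can be placed at the wrong copy, and how far they were was not tested.

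Tet1 (ENSMUSG00000047146, chr10:62804570-62908996, minus strand) had no peak at any of its 10 start sites or inside its 104 kb. The nearest midpoint was 38.0 kb upstream of the gene, at chr10:62946725-62947219 with a −log10 p of 5.78, and lay 54 bp upstream of a TSS of Dna2, a helicase-nuclease gene. A nearer peak was found for 60.2% of protein-coding genes. Of the start sites of Tet1 only that of Tet1-207 was CpG-rich, with a ratio of 0.71. The 2 long coding transcripts, Tet1-206 of 2039 codons and Tet1-201 of 2007 codons, start 47.9 and 67.0 kb from the nearest midpoint, at CpG ratios of 0.27 and 0.631 and GC contents of 45.6% and 45.4%. The 3 TET genes thus had 2 peaks between them, and only that of Tet3 was at a TSS.

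Dnmt3a (ENSMUSG00000020661, chr12:3806007-3914443, plus strand) carried the 2 strongest peaks of the 10 genes, and neither counted as a TSS peak. The first, at chr12:3807989-3808544 (556 bp), had a −log10 p of 10.5, and 6.50% of all peaks were larger. The second, at chr12:3835015-3835487 (473 bp), had one of 11.3, and 4.20% were larger. Against peaks at a protein-coding TSS, 7.89% and 4.97% were larger.

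The first Dnmt3a peak lay just downstream of the promoter of the long form. The transcripts Dnmt3a-201 and Dnmt3a-218 both encode 908 codons, and the midpoint lay in their intron 1, 1236 and 1106 bp downstream of their TSSs. That is just outside the 1 kb limit, and the base of the peak nearest to the TSS of Dnmt3a-218 was 829 bp from it. Both start sites are among the most CpG-rich of the 10 genes, with 158 and 165 CpG dinucleotides in 1 kb and ratios of 0.98 and 0.987. The peak had 37 CpG dinucleotides, a GC content of 66.4% and a ratio of 0.617.

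The second Dnmt3a peak was centred on coding sequence, the only one of the 7 to be so. Its midpoint lay in exon 2 of the 23 exons of Dnmt3a-201 and Dnmt3a-218, and in intron 1 of Dnmt3a-204. The nearest TSS of the annotation, that of Dnmt3a-215, was 14.4 kb downstream. RefSeq has a predicted transcript that starts 556 bp upstream of this midpoint, so with RefSeq the peak counted as one at a TSS. It held 13 CpG dinucleotides at a ratio of 0.338. The short form, encoded by Dnmt3a-203 and Dnmt3a-205 with 689 codons, starts 56.5 kb downstream of this midpoint and had no peak. The next peak outside the gene was 40.4 kb downstream, near the TSS of Pomc, the precursor gene of melanocortins.

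Dnmt3b (ENSMUSG00000027478, chr2:153649450-153687730, plus strand) had the strongest and longest of the 4 TSS peaks. It covered chr2:153649388-153650273 (886 bp, against a median of 467 bp for TSS peaks) with a −log10 p of 7.53, and 36.2% of TSS peaks were larger. The midpoint lay 213 bp downstream of the TSS of Dnmt3b-207 and 376 to 380 bp downstream of those of 9 further transcripts, in intron 1 of each. These 10 transcripts are all of the coding transcripts of Dnmt3b, with 776 to 860 codons. The other 2, the retained introns Dnmt3b-211 and Dnmt3b-212, start 16.0 and 19.5 kb downstream and had no peak. The peak held 97 CpG dinucleotides at a ratio of 0.91, higher than in 77.8% of TSS peaks. Its midpoint also lay in the body of the antisense gene Dnmt3bos, 456 bp downstream of the TSS of that gene. Outside the gene, the next peak was 33.4 kb downstream in Dnmt3c, a DNA methyltransferase gene that is not among the 10, with a −log10 p of 6.21 and 1 CpG dinucleotide.

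Dnmt3l (ENSMUSG00000000730, chr10:78041947-78063622, plus strand) was furthest from any peak. The nearest midpoint, of a peak at chr10:77981461-77981847 with a −log10 p of 8.24, was 60.3 kb upstream, 108 bp from a TSS of 1810043G02Rik. A nearer peak was found for 70.5% of protein-coding genes. Dnmt3l is also the only one of the 10 genes without a CpG-rich TSS, with ratios of 0.175 to 0.287 at its 6 distinct start sites. The 3 DNMT3 genes therefore differed, with a peak at the TSS in Dnmt3b, peaks inside the gene in Dnmt3a and none in Dnmt3l.

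Dnmt1 (ENSMUSG00000004099, chr9:20907209-20959888, minus strand) had no peak at its 7 start sites or inside the gene. The nearest midpoint was 8.66 kb past its 3′ end and 10.4 kb from the TSS of Dnmt1-204, a retained intron, and belonged to a weak peak at the TSS of Eif3g, a translation initiation factor gene (chr9:20898177-20898922, −log10 p 4.63). On the other side a peak at S1pr2, with a −log10 p of 6.63, lay 16.6 kb upstream of the gene. The start site of Dnmt1-201, the longest coding transcript with 1620 codons, was 23.5 kb from that peak. Its CpG ratio was 0.593, and the 2 CpG-rich start sites, of Dnmt1-203 and Dnmt1-207, had ratios of 0.62 and 0.609.

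Uhrf1 (ENSMUSG00000001228, chr17:56303321-56323486, plus strand) had a peak at the downstream group of its start sites. It covered chr17:56304291-56304727 (437 bp) with a −log10 p of 6.24, close to the median of all peaks, and 60.5% of TSS peaks were larger. The midpoint lay 196 bp downstream of the TSS of Uhrf1-202, 161 bp downstream of Uhrf1-204 and 102 bp downstream of Uhrf1-207. The upstream start sites, of Uhrf1-201 and Uhrf1-203, were 1188 and 1109 bp from the midpoint and did not count. The 3 start sites with the peak had CpG ratios of 0.823 to 0.839, and those just outside 0.532 and 0.578. Both groups start transcripts of 774 and of 782 codons. The peak held 27 CpG dinucleotides at a ratio of 0.728. Of its bases, 25.9% are masked as repetitive, against a median of 3.32% over TSS peaks. A stronger peak, with a −log10 p of 11.0, lay 2.54 kb past the 3′ end of Uhrf1 at the TSS of Kdm4b, a histone demethylase gene.

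**Figure D3:**
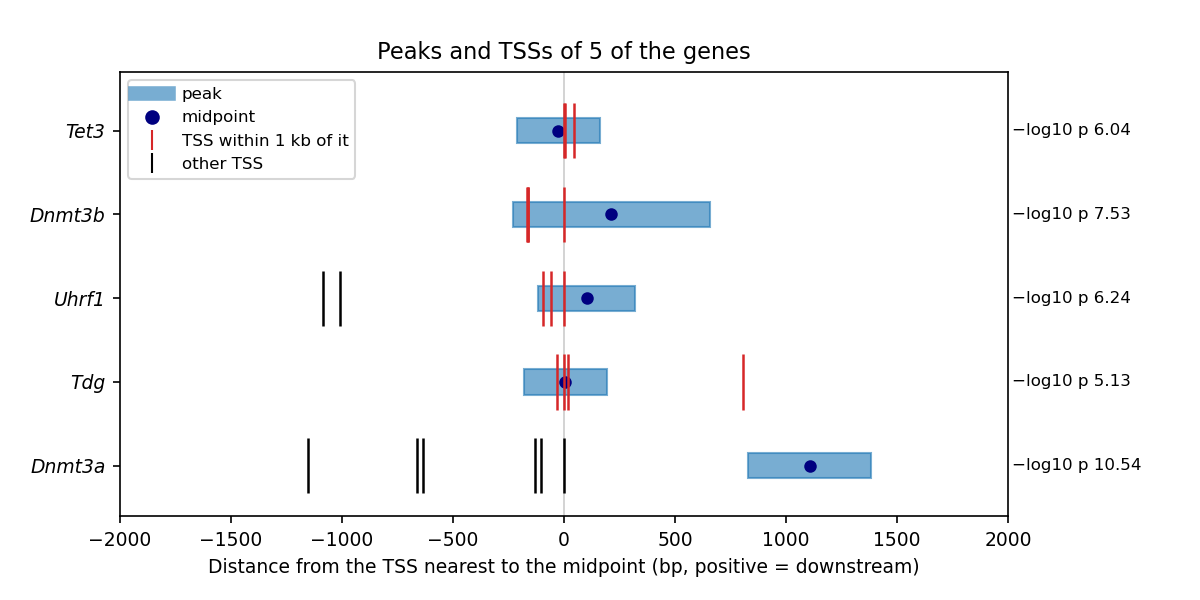
The peaks of Tet3, Dnmt3b, Uhrf1 and Tdg and the first peak of Dnmt3a (blue bars, midpoints as dots) with TSSs within 1 kb of the midpoint in red and other TSSs in black, by distance from the TSS nearest to the midpoint (x axis, bp, positive downstream). Start sites lie inside the bars in Tet3, Dnmt3b, Uhrf1 and Tdg, and the Dnmt3a bar begins 829 bp downstream of its nearest TSS.

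Tdg (ENSMUSG00000034674, chr10:82629828-82650799, plus strand) had the peak closest to a start site. The peak at chr10:82629678-82630052 (375 bp) had its midpoint 6 bp downstream of the TSS of Tdg-208, of 421 codons, 37 bp downstream of Tdg-201, of 397 codons, and 11 bp upstream of Tdg-203, a processed transcript. It also counted for Tdg-206, whose TSS was 802 bp downstream, the furthest inside the limit. For Tdg-201 and Tdg-208 the midpoint fell in the 5′ untranslated part of exon 1. Only 0.984% of protein-coding genes had a midpoint nearer to a TSS.

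The Tdg peak was CpG-dense but weak. Its 50 CpG dinucleotides gave a ratio of 1.05, higher than in 98.3% of all peaks and in 96.6% of TSS peaks. Its −log10 p of 5.13 was shared by 1497 peaks, and 82.6% of TSS peaks were larger. Parts of the peak occur elsewhere in the genome, at 96.6% identity over 179 bp in the pseudogene Tdg-ps on chromosome 15, at 98.5% over 134 bp in Agbl1 on chromosome 7, and at 100% over 119 bp on chromosome 10. The copies in Tdg-ps and Agbl1 each overlapped a deposited peak of their own, with a −log10 p of 7.34 and 6.04, both larger than that at Tdg. The copy on chromosome 10 had none. Reads of these copies may not be told apart from those of Tdg, so the placement of this peak is uncertain.

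Mbd4 (ENSMUSG00000030322, chr6:115840697-115853371, minus strand) had no peak at its 5 start sites or inside its 12.7 kb. The nearest midpoint, of a peak at chr6:115792255-115792650 with a −log10 p of 6.53, lay inside Cand2, 48.2 kb past the 3′ end of Mbd4 and 56.3 kb from the nearest TSS of Mbd4. The 3 CpG-rich start sites of Mbd4, of Mbd4-201, Mbd4-202 and Mbd4-204, had ratios of 0.649 to 0.679 and were 60.8 to 60.9 kb from a midpoint. Of the glycosylases of the 10 genes, Tdg therefore had a TSS peak, of uncertain placement, and Mbd4 had none.

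**Figure D4:**
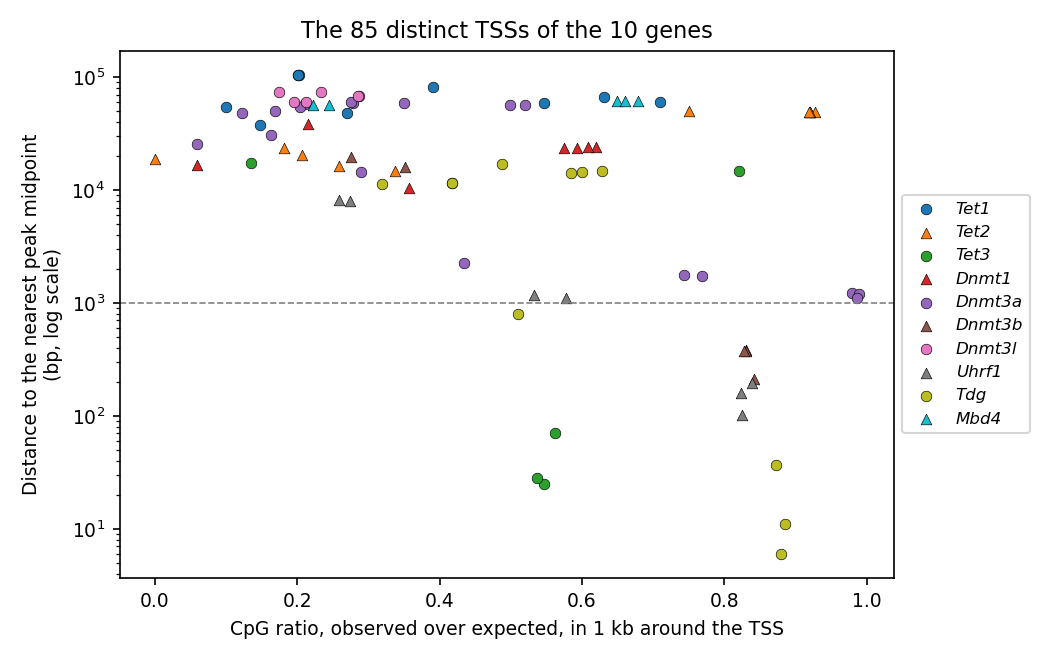
The 85 distinct TSSs of the 10 genes by the CpG ratio of the 1 kb around each (x axis) and the distance to the nearest peak midpoint (y axis, bp, log scale), coloured by gene, with the 1 kb limit dashed. Start sites of Dnmt3b, Uhrf1 and Tdg with ratios over 0.8 lie below the line, while those of Tet2 and Tet3 with such ratios lie at 14.7 kb or more and those of Dnmt3a with ratios of 0.98 to 0.989 just above the line.

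Not every CpG-rich start site of the 10 genes had a peak. Of the CpG-rich sites 10 of 27 had one (37.0%), and of the CpG-poor ones 4 of 58 (6.90%). These shares are near the 35.5% and 5.57% of all such TSSs of protein-coding genes. Start sites that share a peak were counted separately. The CpG-rich start sites without a peak were those of Tet2, with ratios of 0.75 to 0.927, and of Dnmt3a, Tet3-203, Tet1-207, Dnmt1 and Mbd4, 17 in all. As a comparison over the whole list, the median CpG ratio was 0.512 for all peaks and 0.789 for TSS peaks, and among the 4 TSS peaks of the 10 genes those of Dnmt3b and Tdg were above the latter. The motif GGGCGG, the core of the sequence bound by SP1, was searched on both strands in 201 bp around the midpoint. It was found in 3 of the 7 peaks, with 2 matches at Tet3, 1 at Tdg and 1 in the first Dnmt3a peak, and in 26.6% of all peaks and 47.0% of TSS peaks. The motif TTNNGCAA, the core of the site of C/EBP factors, was in 0 of the 7, in 4.39% of all peaks and in 2.55% of TSS peaks. Overlap with other motifs was not considered, and a match is a description of the letters only.

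Lists of genes that act with the 10 were counted in the same way, against the same 24.6% of protein-coding genes. Among partners of TET and DNMT proteins, 11 of 19 matched genes had a TSS peak (57.9%, interval 33.5% to 79.7%). The strongest were at Hells, a remodelling factor needed for DNA methylation, with a −log10 p of 10.3, at Idh1 with 9.27, at Cdca7, which acts with Hells, with 8.65, and at Idh2 with 8.21. Idh1 and Idh2 are among the genes whose enzymes make 2-oxoglutarate, the cosubstrate of TET proteins. One listed name, Vprbp, was not matched because it is an older name of Dcaf1, which is in the list. The interval of this list lies above the share of all protein-coding genes and includes the 39.9% of genes with a CpG-rich TSS. The lists were chosen with earlier results of these data known, and no allowance was made for their number. This interval is therefore a description and not a test.

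The intervals of the other lists include both shares. Of 15 genes of base excision repair, which follows TDG and MBD4, 5 had a TSS peak (33.3%, interval 11.8% to 61.6%), and the strongest were at Lig3 with a −log10 p of 9.98 and at Apex1 with 8.21. Parp1, at 6.49, and Neil3, at 6.21, came next. Of 10 genes listed as methyl-CpG readers and related proteins, 2 had one (20.0%, interval 2.52% to 55.6%), Mbd2 with 12.0 and Mbd3 with 8.24. Which of the 10 bind methylated CpG was not checked. Of 13 genes of the methyl donor cycle, 2 had one (15.4%, interval 1.92% to 45.4%), Gnmt with 11.1 and Ahcy with 4.12. Of 7 genes that methylate cytosine in RNA and tRNA, 2 had one (28.6%, interval 3.67% to 71.0%), Nsun2 with 10.3 and Nop2 with 6.95.

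The labelled cell type cannot be checked by expression here. Of 10 adipocyte genes, 1 had a TSS peak (10.0%, interval 0.253% to 44.5%), which was Lep, the leptin gene, with a −log10 p of 11.2, and Adrb3 had a peak inside the gene. The defining adipocyte genes Adipoq, Fabp4, Plin1 and Pparg had no TSS peak, which says nothing of their expression.

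**Figure D5:**
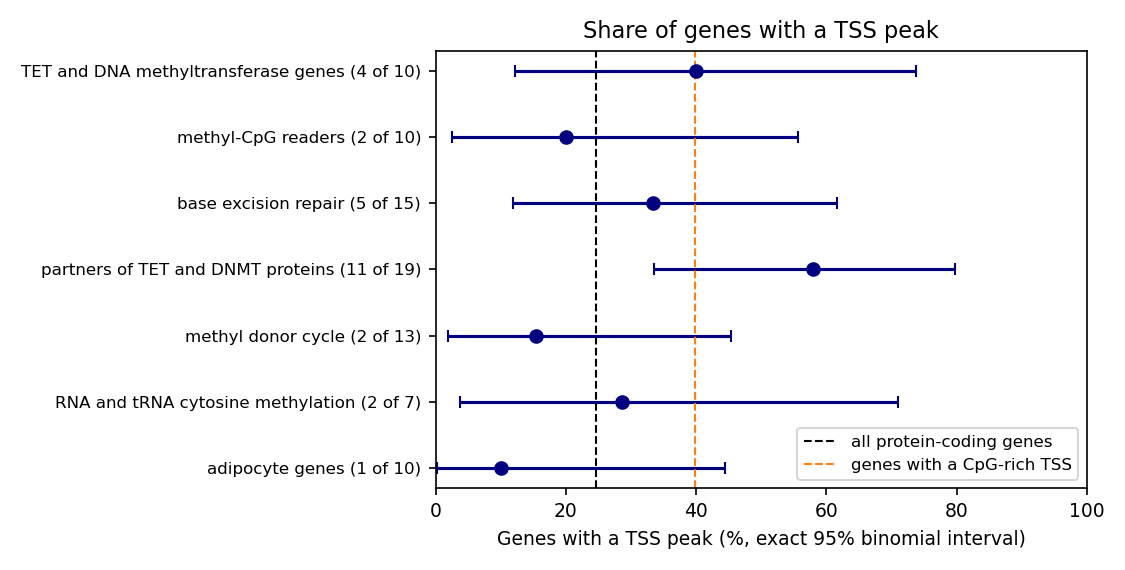
The share of genes with a TSS peak (x axis, %) in each list, with exact 95% binomial intervals as bars, the share of all protein-coding genes as a black dashed line at 24.6% and that of genes with a CpG-rich TSS as an orange one at 39.9%. The point of the 10 genes lies on the orange line at 40.0%, and only the interval of the partners of TET and DNMT proteins lies wholly above the black line. The lists were chosen with earlier results of these data known.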

How the data were processed

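TET2 ChIP-seq was performed on 1 TET2 and 1 input library. Per the study's methods, reads were trimmed and aligned with bowtie1, peaks were called with MACS2 (2.1.0 in the submitters' processing notes) and annotated with ChIPseeker. The authors deposited 1 list for the TET2 library, with each peak's interval and its −log10 p, and those p-values served for description, ranking and filters within the list. The methods name GRCm39 and the processing notes mm10, which is GRCm38. On GRCm38, 0 peak midpoints lay in an assembly gap and 0 peaks passed a chromosome end, and all positions are given on that build. Positions of another build could pass these checks too. Read on GRCm38, the Lep peak midpoint lay 68 bp upstream of a TSS of Lep, and 5170 of the 14103 peaks lay at a protein-coding TSS. Placement on GRCm39 was not tried. The study's reporting summary gives 1e-05 as the p-value setting of the peak calls, which is a −log10 p of 5, yet 15.5% of the deposited peaks were below it. The column was taken as −log10 p, and the reason for the lower values was not tested. Sequencing yield is given as a data size and not as reads of each library, and read totals and the input signal were not analysed here.

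Peaks were placed by midpoint on GENCODE M21 transcripts, with starts read as the first base of the peak. The 10 genes and the 6 further lists were chosen with earlier results of these data known. All 10 genes are named, with up to 4 genes per list, those with the largest −log10 p at a TSS. Outside that rule, Adrb3, Adipoq, Fabp4, Plin1, Pparg and the unmatched name Vprbp with Dcaf1 were named after their values were seen. Sequence, masking and CpG counts came from the RefSeq genome GRCm38.p6. Copies were blastn 2.17.0 matches of at least 100 bp and 90% identity. Intervals came from scipy 1.17.1, figures from matplotlib 3.10.9, and tables from pandas 2.3.3 and numpy 2.4.6 under Python 3.11.15, and the placement step was tested on simulated peaks. With 1 library no test was run. Alternatives were other windows, p limits, start sites and annotations.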

Additional observations from a re-analysis of the deposited data

How the results depend on the processing

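No paired analysis was possible because there was 1 TET2 library and 1 input library, and for the same reason no replicate could be left out. The count of 4 genes with a TSS peak was 4 within 500 bp, with a p of at most 1e-05 and with protein-coding transcripts only. It was 5, with Dnmt3a added, within 3 kb, with any base of the peak within 1 kb and with RefSeq. It fell to 2, Dnmt3b and Tdg, when only the 5′ end of each gene was used. For the RefSeq and 5′ end settings the share of all protein-coding genes was not computed. With a −log10 p of at least 10, 0 genes had a TSS peak, and 1, Dnmt3a, had a gene body peak or either kind, against 6 and 6 without that limit. The share of all protein-coding genes with a gene body peak or either kind was not computed at that limit. Gene body peaks over 1 kb from every TSS of the gene were found in 2 genes, Tet2 and Dnmt3a, again without a share of all genes to set beside them. The share of protein-coding genes with a TSS peak, 24.6%, was 21.6% within 500 bp, 28.5% within 3 kb, 25.3% with any base, 22.1% with a p of at most 1e-05, 2.71% with a −log10 p of at least 10 and 23.1% with protein-coding transcripts only. With a p of at most 1e-05 the nearest peak of Dnmt1 was the one at S1pr2, 16.6 kb from its TSS, since the one at Eif3g was weaker. The Tet2 peak, at 5.0023, passed that limit narrowly. Precision is limited by the number of genes and by the depth, whose reads per library were not analysed here, since a peak that was not called is not shown to be absent.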
